A study of Mus musculus with 16 samples.

Results

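The genes described here encode endogenous ligands of the TGF-beta superfamily in mouse TM4 cells: *Tgfb1*, *Tgfb2*, *Tgfb3*, *Bmp2*, *Bmp4*, *Gdf6*, *Gdf11*, *Inha*, *Inhba* and *Inhbb*. They were chosen by symbol and are 10 of the 56748 genes in the counts table. TM4 is an established Sertoli-like line from mouse testis, and Sertoli cells are the somatic cells that nurse the germ cells. The cells were transfected in wells with 2.5 µg of plasmid and harvested 24 h later for RNA-Seq. The groups were an empty vector (EV, 6 samples), a plasmid expressing *gdf6Y*, the Y-chromosomal *gdf6* copy of the turquoise killifish (5 samples), and a plasmid expressing the mutant del9, in which a short in-frame deletion removes part of the prodomain sequence (5 samples). All samples came from this 1 line, whose growth medium contained bovine serum, and the sources used here do not say whether the replicates were separate cultures, so p-values measure the spread between these samples, which may be technical.

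Ligands of this superfamily are secreted as dimers cut from a longer precursor, and they signal through pairs of serine/threonine kinase receptors to SMAD proteins. TGF-betas and activins mainly use SMAD2 and SMAD3, whereas BMPs and their relatives such as GDF6 mainly use SMAD1, SMAD5 and SMAD9. In the testis, Sertoli cells are known for inhibin, a dimer of an alpha subunit (*Inha*) and a beta subunit (*Inhba* or *Inhbb*) that lowers FSH release, and dimers of beta subunits alone are the activins.

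Each sample held between 21486850 and 26444903 counted reads. Of the 11 Sertoli cell markers examined, *Wt1* and *Dmrt1* had 0 reads in all 16 samples, *Fshr* and *Cldn11* had at most 1 read in any sample, and *Gata4*, *Kitl*, *Dhh* and *Sox9* were the 4 with a mean of 10 reads or more. Of the 4 markers of peritubular myoid cells, *Acta2* had 3985 to 5336 reads, *Des* 32 to 62, *Cnn1* 22 to 41 and *Myh11* at most 3. Of the 6 Leydig cell genes, *Cyp17a1*, *Lhcgr* and *Hsd3b1* had 0 reads throughout, *Cyp11a1* at most 1, *Insl3* at most 7 and *Star* 12 to 34. Of the 5 granulosa cell genes, *Foxl2*, *Cyp19a1* and *Rspo1* had 0 reads throughout, *Wnt4* at most 5 and *Fst* 394 to 748. Because these are bulk samples, fewer cells of a type and less RNA per cell cannot be told apart.

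The genes that the results turn on are *Inhbb* and *Inhba*, the only 2 ligand genes that passed the test in any comparison. *Inhbb* lies on the minus strand at chr1:119343193-119350021 and *Inhba* on the plus strand at chr13:16186373-16206206 (GRCm39). Their promoters are shown since both genes moved the same way, as the 180 bases from -250 to -71 of the RefSeq start, which lie upstream of every annotated exon of the 2 genes. The letters are from the RefSeq promoter table (build GRCm38.p6), in which 7 of the 10 ligand genes were found, and they were placed on GRCm39 by exact match, at chr1:119350049-119350228 (minus strand) and chr13:16186186-16186365 (plus strand). Each is written 5′ to 3′ on the strand of the gene, with a TATA box match (TATAAA) in capitals.
Inhbb promoter: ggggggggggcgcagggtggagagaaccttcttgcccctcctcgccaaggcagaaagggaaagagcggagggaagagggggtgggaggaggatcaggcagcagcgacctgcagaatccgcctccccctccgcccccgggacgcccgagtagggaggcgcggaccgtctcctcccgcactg
Inhba promoter: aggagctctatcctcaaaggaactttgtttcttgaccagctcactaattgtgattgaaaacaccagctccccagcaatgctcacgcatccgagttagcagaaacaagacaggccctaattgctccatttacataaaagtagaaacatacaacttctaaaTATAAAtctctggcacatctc
The window of *Inhbb* was 70.6% G and C, more than in 92.3% of the 32851 RefSeq promoter windows of this length, and that of *Inhba* was 41.1%, above 16.8% of them. The single match in *Inhba* begins at -91 of the RefSeq start but 28 bases before the gene start in GENCODE, as these 2 starts differ. TATAAA was found on either strand in 8.37% of all windows. As the windows end at -71 of the RefSeq start, matches nearer the start were not counted. Neither window held the SMAD box CAGAC, present on either strand in 33.2% of windows, the BMP-type SMAD site GGCGCC (6.19%) or the cAMP response element TGACGTCA (0.584%). These letters describe the windows only.

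Among the ligand genes, TM4 cells transfected with EV held mostly mRNA of the 2 activin and inhibin beta subunits. Levels were compared between genes as RPKM, that is, reads per kilobase of exon on a common library size after TMM scaling, a between-sample normalization. *Inhbb* had the highest level of the ligand genes with 41.6 ± 1.21 RPKM (SD, n = 6), above 96.6% of the 24189 genes with a read in EV and an annotated length. *Inhba* followed with 23.3 ± 0.892 RPKM. *Gdf11*, a relative of myostatin that signals through activin-type receptors, came next with 8.95 ± 0.308 RPKM. The 3 TGF-betas lay lower, with *Tgfb1* at 5.99 ± 0.285, *Tgfb2* at 4.42 ± 0.212 and *Tgfb3* at 4.40 ± 0.270 RPKM. *Inha* was low at 0.217 ± 0.0328 RPKM. Every neighbouring pair in this order was separated in all 6 EV samples except *Tgfb2* and *Tgfb3*, whose ranges overlapped. The same order was found in gdf6Y and del9, apart from *Tgfb3* then being above *Tgfb2*, again with overlapping ranges. The place of *Tgfb1* depended on the length used: per longest transcript, in place of all exons joined, it had 11.8 RPKM in EV and stood above *Gdf11*, which stayed at 8.95.

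**Figure D1:**
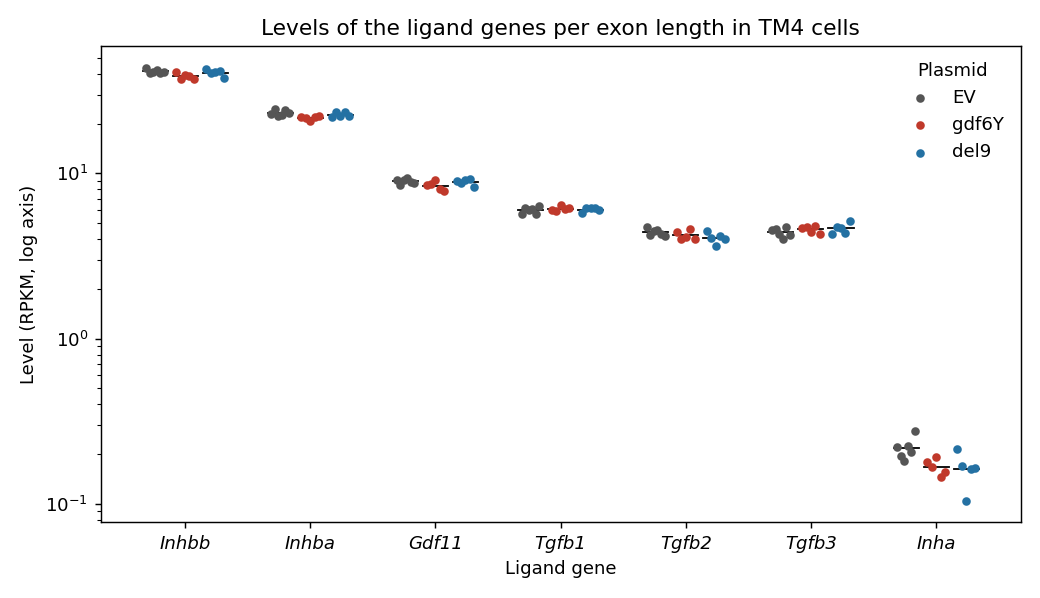
Level of the 7 detected ligand genes in RPKM on a log axis, with 1 point per sample and a bar at the mean of each plasmid group (EV 6, gdf6Y 5, del9 5 samples). *Inhbb* and *Inhba* lie highest, at means of 41.6 and 23.3 RPKM in EV, and *Inha* lies lowest at 0.217, while the 3 groups of each gene lie close together.

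The 2 beta subunit genes took 73.0% ± 0.309 of the summed RPKM of the ligand genes in EV, 72.0% ± 0.654 in gdf6Y and 72.7% ± 0.475 in del9. *Inhbb* exceeded *Inhba* in each of the 16 samples, by 1.66 to 1.96 times. The summed beta subunits exceeded the alpha subunit *Inha* by 234 to 346 times in EV, by 312 to 419 times in gdf6Y and by 301 to 606 times in del9. *Inha* was thus the rare partner at the mRNA level in every sample, and protein was not measured. Within the TGF-betas, *Tgfb1* made up 40.4% ± 1.94 of the summed RPKM in EV, 41.0% ± 1.62 in gdf6Y and 40.9% ± 1.36 in del9. These shares and ratios used all exons joined and depend on that length. *Tgfb1* has 5083 such bases but 2573 in its longest transcript, by which its share would be larger.

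The BMP-type members were not detectable or almost so. *Bmp2*, which drives bone and heart formation, had 0 reads in all 16 samples. *Gdf6*, the mouse counterpart of the transfected gene, also had 0 reads in all 16 samples, the gdf6Y and del9 samples included, out of 394478886 reads. The killifish insert is not a mouse gene of the table and was not analysed here. *Bmp4*, a BMP with many roles in germ cell and organ formation, had 1 read, in del9 replicate 3. A count of 0 allows up to 3 reads over a group, which for *Gdf6* in the 6 EV samples is 0.00579 RPKM, so that *Inhbb* was at least 7188-fold higher. For *Bmp2* in EV this limit is 0.00445 RPKM and for *Bmp4* 0.00393 RPKM, and *Tgfb3* was at least 989-fold and 1119-fold higher, respectively. Such limits cover counting error only.

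The comparison of gdf6Y with EV asks what expressing *gdf6Y* does to the cells. In it *Inhbb* and *Inhba* passed the test as lower in gdf6Y, and no ligand gene passed as higher. Differences were tested with the two-sided quasi-likelihood F test of edgeR over all genes with at least 1 read in the samples compared, with Benjamini-Hochberg adjustment over all of them and a threshold of 0.05. It was applied to 26316 genes, of which 5.08% passed, 448 higher and 890 lower, and among the 12587 with a mean of at least 10 reads 10.5% passed. Of the 10 ligand genes, 7 had a read in these samples and were tested, and 2 of them passed. The median log2 fold change of those 7 was -0.09, beside a median of 0.00085 for all genes with a mean of at least 10 reads.

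Normalized counts (reads scaled by TMM to the mean library size) of *Inhbb* in the 6 EV samples had a lowest value of 4294, a median of 4375 and a highest value of 4632. In gdf6Y replicates 1 to 5 they were 4353, 3943, 4177, 4110 and 3951. Of these, 4 lie below every EV sample, and replicate 1 lies within the EV range. The means were 4107 ± 171 in gdf6Y (SD, n = 5) and 4410 ± 128 in EV (SD, n = 6), a log2 fold change of -0.10 with a standard error of 0.03 and an adjusted p of 0.0121 (edgeR quasi-likelihood test, Benjamini-Hochberg adjusted). In linear terms the fitted level in gdf6Y was 0.932 times that in EV.

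*Inhba* had normalized counts from 3880 over a median of 4039 to 4293 in EV. In gdf6Y replicates 1 to 5 they were 3861, 3777, 3646, 3868 and 3901. All gdf6Y samples but replicate 5 lie below the lowest EV sample, and replicate 5 exceeds only that one. The means were 3810 ± 103 in gdf6Y and 4076 ± 156 in EV, and the log2 fold change was -0.10 with a standard error of 0.03 and an adjusted p of 0.0237 by the same edgeR test with Benjamini-Hochberg adjustment.

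Both calls depended on which samples were included. With 1 of the 11 samples left out at a time, *Inhbb* lost its call without EV replicate 1 (adjusted p = 0.102), gdf6Y replicate 2 (0.0761) or gdf6Y replicate 5 (0.0807), by edgeR's test with Benjamini-Hochberg adjustment. *Inhba* lost it without EV replicate 2 (0.104), EV replicate 5 (0.0762), gdf6Y replicate 2 (0.0554) or gdf6Y replicate 3 (0.168). The direction was the same in all 11 of these fits for both genes, with log2 fold changes between -0.12 and -0.08.

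**Figure D2:**
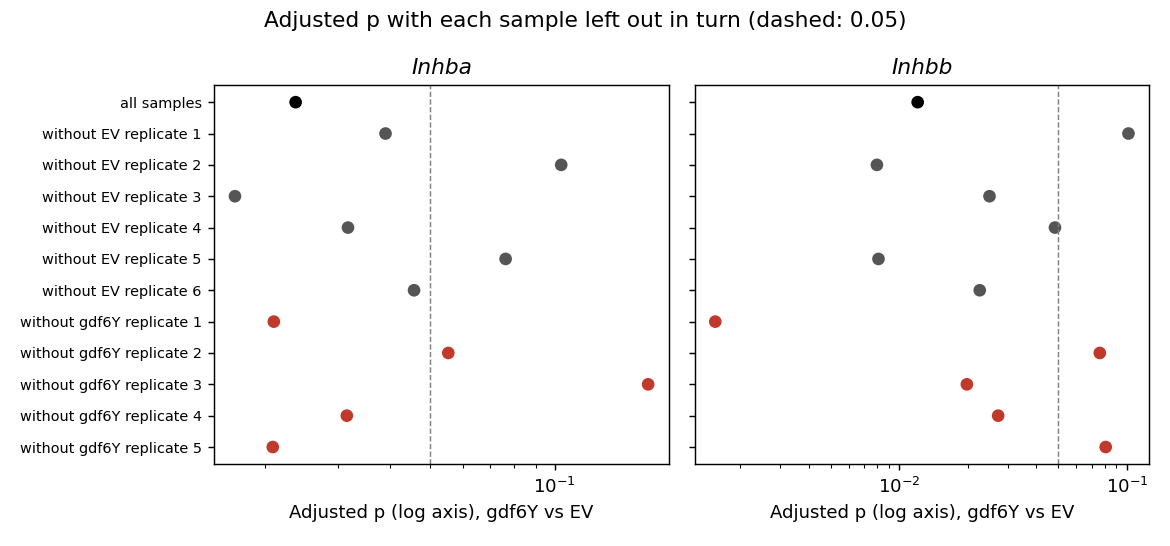
Adjusted p of *Inhba* and *Inhbb* for gdf6Y against EV (edgeR, log axis) with all samples in black and with each EV (grey) or gdf6Y (red) sample left out in turn. The dashed line is at 0.05, and 4 points for *Inhba* and 3 for *Inhbb* lie to the right of it, up to 0.168 and 0.102.

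Among the cell markers, only *Gata4* passed between the same samples. Of the 11 Sertoli cell markers 8 were tested, where 5.08% of all genes tested passed. Only 4 of the 11 had a mean of at least 10 reads, where 10.5% of all such genes passed. *Gata4*, a transcription factor of Sertoli cells, was lower in gdf6Y (722 ± 19.0 against 831 ± 6.04 normalized counts, log2 fold change -0.20, adjusted p = 9.98e-05 by edgeR), the only 1 of the 11 Sertoli cell markers that passed. The summed level of that list ran from 9.51 to 10.1 RPKM in gdf6Y and from 10.5 to 11.1 in EV, without overlap. In del9 it ran from 9.88 to 10.8 RPKM, which overlaps both. *Gata4* alone had means of 5.15 RPKM in gdf6Y and 5.92 in EV. Of the 11 markers, 7 had a mean below 10 reads, so the sum mostly follows a few genes. The 4 peritubular myoid cell markers, of which none passed, summed to between 59.0 and 63.4 RPKM in gdf6Y and between 56.2 and 59.1 in EV. Their part in the lower *Inhbb* and *Inhba* was not tested.

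The other 5 detected ligand genes did not pass the test in gdf6Y against EV. *Inha* had normalized counts of 29.6, 27.3, 31.8, 23.9 and 25.7 in gdf6Y and of 30.1 to 45.5 with a median of 35.0 in EV. All gdf6Y samples but replicate 3 lie below the EV range. The log2 fold change was -0.36 (95% interval -0.70 to -0.01), and the adjusted p was 0.308 by edgeR, at 24 to 40 reads per sample. *Gdf11* had 876 ± 53.3 normalized counts in gdf6Y and 932 ± 32.1 in EV, a log2 fold change of -0.09 with a 95% interval of -0.16 to -0.01 and an adjusted p of 0.249. For the TGF-betas the groups overlapped widely. *Tgfb1*, the family's general regulator of growth and matrix, had a log2 fold change of 0.04 (-0.05 to 0.12), *Tgfb2* of -0.07 (-0.15 to 0.02) and *Tgfb3* of 0.06 (-0.03 to 0.15), with adjusted p of 0.680, 0.528 and 0.570 by edgeR.

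**Figure D3:**
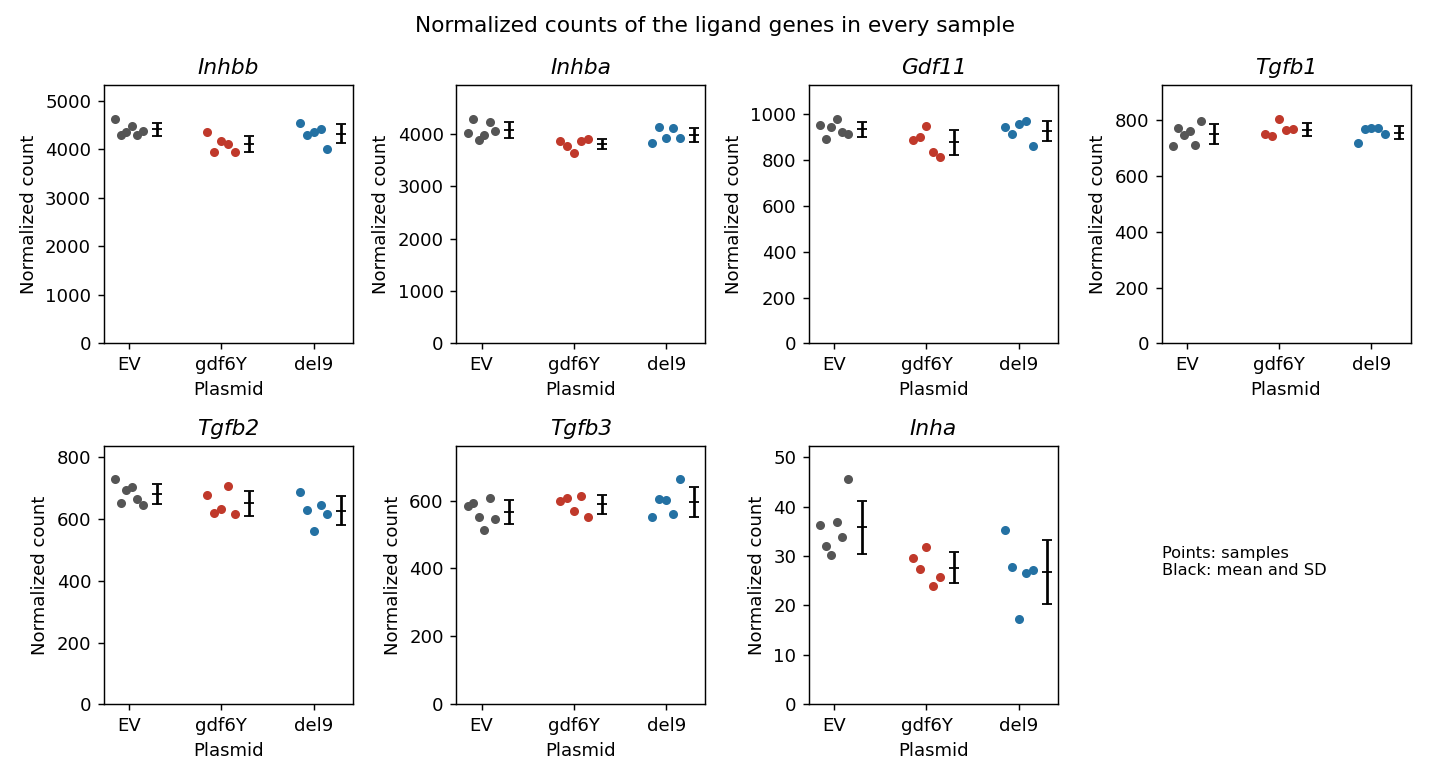
Normalized counts of the 7 detected ligand genes from 0 on a linear axis, with 1 point per sample and the mean and SD of each plasmid group in black. The gdf6Y points of *Inhbb* and *Inhba* centre on 4107 and 3810 against 4410 and 4076 in EV, and for each gene the ranges of the groups overlap.

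The comparison of gdf6Y with del9, both of which express a *gdf6Y* sequence, asks what depends on the intact sequence. No ligand gene passed in it: 0 of the 8 tested, with 1.01% of 25878 genes passing (155 higher and 106 lower), and 2039 genes at an unadjusted p below 0.05. *Inhbb* was the nearest, at 4107 ± 171 normalized counts in gdf6Y and 4322 ± 193 in del9 (SD, n = 5 each). Its del9 replicates 1 to 5 had 4538, 4297, 4347, 4409 and 4016 normalized counts, so that 4 of them lie above 4 of the 5 gdf6Y samples and the groups overlap. The log2 fold change of *Inhbb* was -0.07 (95% interval -0.13 to -0.01) with an adjusted p of 0.522, and that of *Inhba* was -0.06 (-0.12 to 0.00) with an adjusted p of 0.654, both by edgeR with Benjamini-Hochberg adjustment. In these 2 groups, same-numbered replicates shared part of their deviation. With the replicate number as a block, 2.55% of the genes passed, 289 higher and 372 lower, and still 0 ligand genes, with adjusted p of 0.121 for *Inhbb* and 0.284 for *Inhba*. The intervals of the other detected members were -0.16 to 0.01 for *Gdf11*, -0.06 to 0.11 for *Tgfb1*, -0.04 to 0.15 for *Tgfb2*, -0.11 to 0.08 for *Tgfb3* and -0.33 to 0.42 for *Inha*, in log2 fold change. A log2 difference of the size seen against EV, about -0.10, lies inside the intervals of *Inhbb* and *Inhba*.

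**Figure D4:**
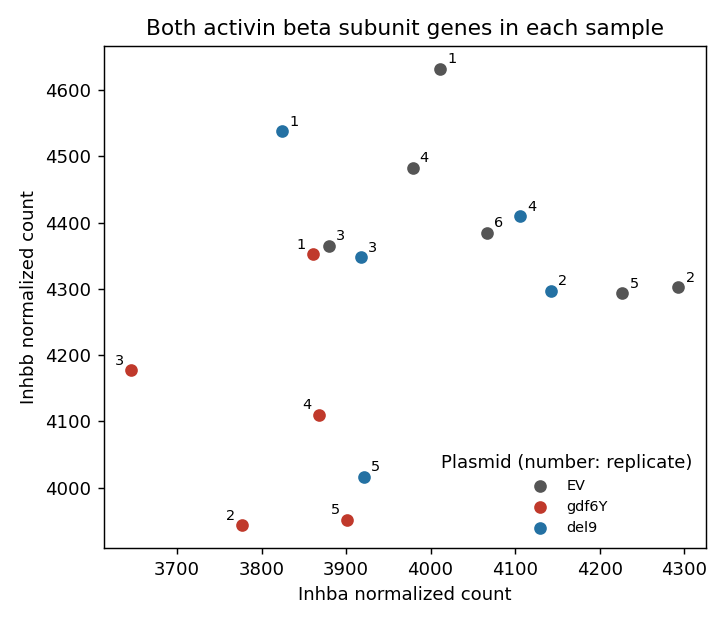
Normalized count of *Inhba* (horizontal) against that of *Inhbb* (vertical) in each of the 16 samples, coloured by plasmid and numbered by replicate, on axes that do not start at 0. The gdf6Y samples lie to the left and mostly low (3646 to 3901 and 3943 to 4353). The EV samples lie mostly to the upper right (3880 to 4293 and 4294 to 4632), with overlap on both axes. The del9 samples are spread between and among them.

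In del9 against EV, both of them control plasmids of the study, no ligand gene passed either: 0 of 8, with 9.25% of 26226 genes passing and 4916 genes at an unadjusted p below 0.05. The passing genes were 1263 higher and 1162 lower, or 863 and 1492 when total counts replaced TMM. *Inhbb* (log2 fold change -0.03, 95% interval -0.08 to 0.03) and *Inhba* (-0.03, -0.08 to 0.02) had intervals that include 0, with adjusted p of 0.590 and 0.522 by edgeR. Normalized counts of *Inhba* in del9 replicates 1 to 5 were 3825, 4142, 3918, 4106 and 3921, of which only replicate 1 lies below the EV range. The difference of *Inhbb* between gdf6Y and del9 and that of *Inhba* missed the threshold, so the levels in gdf6Y were not shown to differ from those in del9.

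*Tgfb2*, a TGF-beta prominent in development, had the smallest adjusted p of the ligand genes in del9 against EV. Its normalized counts were 687, 628, 560, 647 and 616 in del9 and ran from 645 over a median of 680 to 729 in EV. Of the del9 samples, 3 lie below the EV range, with replicate 3 lowest, and replicates 1 and 4 lie within it. The means were 628 ± 46.4 and 682 ± 32.7, the log2 fold change was -0.12 with a standard error of 0.04, and the adjusted p was 0.0704 by edgeR with Benjamini-Hochberg adjustment. It passed without EV replicate 2 (0.0398), EV replicate 6 (0.0452) or del9 replicate 1 (0.0113), and with 3 other settings. *Inha* had 35.3, 27.8, 17.2, 26.6 and 27.1 normalized counts in del9, 4 of them below the EV range, with a log2 fold change of -0.40 (-0.74 to -0.06) and an adjusted p of 0.154. *Tgfb3* (log2 fold change 0.08, -0.01 to 0.17), *Tgfb1* (0.02, -0.06 to 0.10) and *Gdf11* (-0.01, -0.08 to 0.07) had intervals that include 0. *Bmp4*, with its single read, was tested here and against gdf6Y but gives no usable fold. The comparisons with EV share the EV samples, and the 2 that include gdf6Y share the gdf6Y samples.

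**Figure D5:**
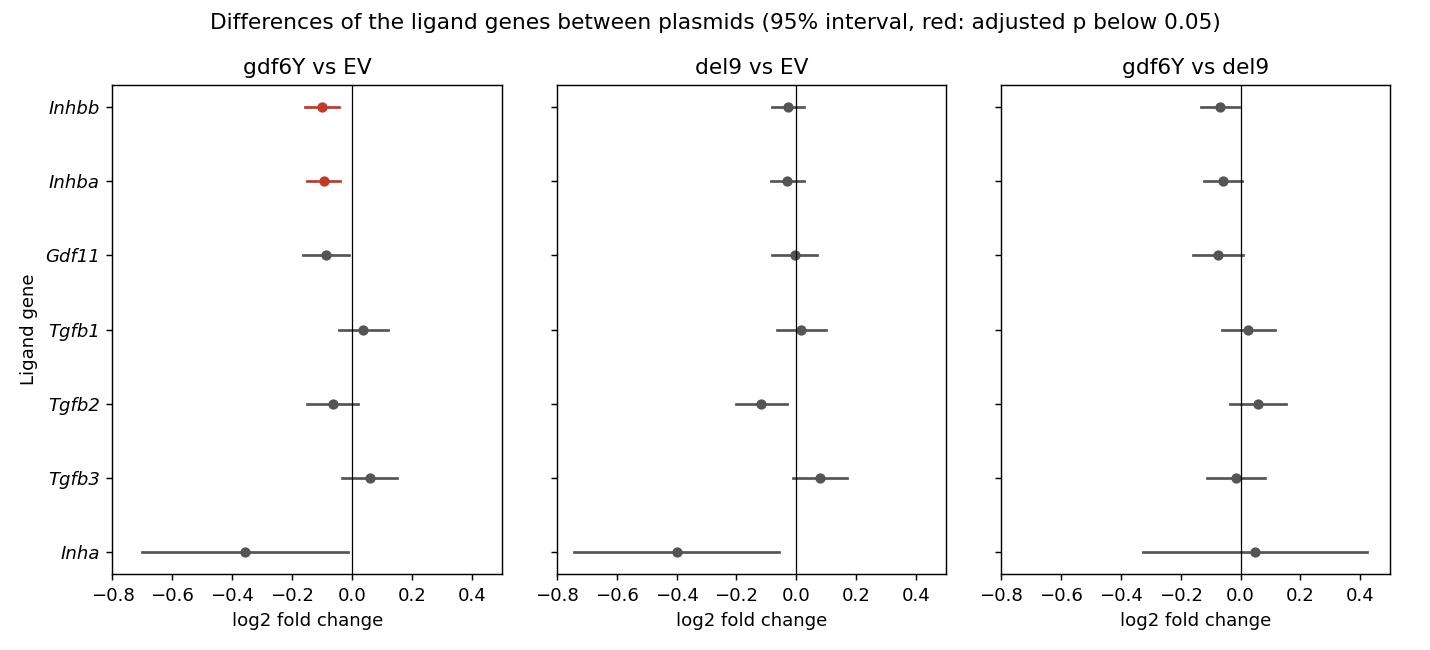
Log2 fold change (point) and 95% interval (line) of the 7 detected ligand genes in the 3 comparisons, with adjusted p below 0.05 in red (edgeR's quasi-likelihood test). *Inhbb* and *Inhba* at about -0.10 in gdf6Y against EV are the only red points, and *Inha*, with 17 to 40 reads per sample, has the widest intervals.

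Samples were also searched for the genes whose log2 CPM followed that of the 2 passing members most closely, among 10780 genes with a mean of at least 50 reads. Over the 16 samples *Inhba* was most like *Fip1l1* (Pearson r = 0.845), *Prickle1* (0.799) and *B3galt1* (0.797). *Inhbb* was most like *Lipg* (0.894), *Irf2bpl* (0.889) and *Socs3* (0.880). The lists share no gene. These are descriptions over samples that share the group differences and the scaling to library size.

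The remaining ligands of the superfamily were scarce, apart from *Bmp5*. Of 27 others examined, *Bmp5* was the most abundant with 191 to 333 reads per sample and 2.78 RPKM in EV, followed by *Nrtn* with 5 to 19 reads and 0.360 RPKM and by *Amh*, the Müllerian inhibitor of Sertoli cells, at 0.133. *Bmp5* had 276, 224, 250, 261 and 185 normalized counts in del9 and 219 to 318 in EV, and it passed in del9 against EV (log2 fold change -0.21, adjusted p = 0.0161 by edgeR). It passed in neither comparison of gdf6Y, and no other of the 27 passed in any comparison. Of the 27, 17 were tested in gdf6Y against EV, 16 in gdf6Y against del9 and 15 in del9 against EV. Only 1, 1 and 2 of them, respectively, had a mean of at least 10 reads. Over all genes tested, 5.08%, 1.01% and 9.25% passed in these comparisons. Of 7 proteases that cut the precursors, 5 were tested in each comparison, 3 of them with a mean of at least 10 reads. None passed, *Furin* at 8.39 RPKM in EV being the best known of them.

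Some genes that store and release the latent ligands were lower than in EV with either plasmid. Of 12, 4 passed as lower than EV in gdf6Y and 6 in del9, and none passed as higher. Of all genes tested, 5.08% and 9.25% passed in either direction, or 10.5% and 18.2% of those with a mean of at least 10 reads. *Thbs1*, whose product can activate latent TGF-beta, had 27850 ± 1410 normalized counts in gdf6Y, 27516 ± 831 in del9 and 32771 ± 1248 in EV. The integrin subunit gene *Itgb8* had 407 ± 47.3, 419 ± 50.7 and 520 ± 19.0, respectively. *Fbn1*, which encodes the microfibril protein that holds the latent complexes, and *Itgav*, the integrin partner of *Itgb8*, were likewise lower in both, and the latent TGF-beta binding proteins *Ltbp1* and *Ltbp2* were lower in del9. *Ltbp2* was the only 1 of the list to differ between gdf6Y and del9 (log2 fold change 0.18, adjusted p = 0.00039 by edgeR).

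Among 15 receptor genes, *Tgfbr2*, the type II receptor of the TGF-betas, was lower in gdf6Y than in EV (log2 fold change -0.13, adjusted p = 9.98e-05) and than in del9 (-0.14, adjusted p = 0.00159, edgeR). *Tgfbr3*, a coreceptor that binds TGF-beta2 and inhibin, and *Bmpr2*, a type II receptor of BMPs, were lower than EV in gdf6Y (-0.15 and -0.24) and in del9 (-0.24 and -0.20). The activin receptor genes *Acvr2a*, *Acvr2b* and *Acvr1b* passed in no comparison. Of the 15, 11 had a mean of at least 10 reads. Of these, 3 passed in gdf6Y against EV, 1 in gdf6Y against del9 and 2 in del9 against EV. Among all genes with such a mean 10.5%, 1.78% and 18.2% passed, respectively. Of 17 secreted antagonists, *Fst* (follistatin, which binds activin) was higher in del9 than in EV (log2 fold change 0.44, adjusted p = 2.13e-18) and lower in gdf6Y than in del9 (-0.29, adjusted p = 2.26e-06), by edgeR. *Nbl1*, a BMP antagonist, was higher than EV in gdf6Y (0.19) and del9 (0.15), and *Fstl3*, a follistatin relative, in del9 (0.10). Of the 17 antagonists, 10 had a mean of at least 10 reads. Of these, 1, 1 and 3 passed in the same 3 comparisons, beside the shares given for the receptors. *Fst* also stands in the list of granulosa cell markers, whose sum was 3.34 to 5.28 RPKM in gdf6Y, 4.54 to 6.24 in del9 and 3.42 to 4.83 in EV.

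Most of the response genes rose with gdf6Y. Of 13, 8 passed as higher in gdf6Y than in EV and 9 as higher in gdf6Y than in del9. *Id1*, a transcriptional inhibitor induced by BMPs, had 1927 ± 87.6, 1035 ± 38.3 and 1235 ± 63.4 normalized counts in gdf6Y, EV and del9. In these comparisons of gdf6Y 5.08% and 1.01% of all genes passed in either direction. Of those with a mean of at least 10 reads, as all 13 have, 10.5% and 1.78% passed. In del9 against EV 9.25% of all genes and 18.2% of those with such a mean passed. There *Id1* (log2 fold change 0.26, adjusted p = 2.56e-10) and *Id2* (0.15, adjusted p = 0.0412) were higher, by edgeR. *Ccn2*, named after its value was seen, was lower (-0.07, adjusted p = 0.0329 by edgeR). The log2 fold change of *Id1* in gdf6Y against EV was 0.90 with a standard error of 0.03, beside -0.10 for each of *Inhbb* and *Inhba*. The list holds genes that the study picked from these samples, so it is not independent evidence of its direction.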

How the data were processed

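RNA-Seq counts of 16 TM4 samples were analysed. The deposited values are raw whole-number counts, which the authors made as follows: they demultiplexed with bcl2fastq 2.20.0.422, extracted molecular identifiers and removed PCR duplicates with UMI-tools, aligned with STAR 2.7.10a to GRCm39 with an Ensembl annotation, and counted uniquely mapped reads by strand with featureCounts 2.0.3, discarding reads that overlap several genes. They left out 1 further gdf6Y and 1 further del9 sample for lower quality. Conditions and replicate numbers came from the labels. Symbols, positions and exon lengths came from GENCODE vM39, which held 56017 of the 56748 identifiers.

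Each comparison was fitted alone in R 4.3.3 with edgeR 4.0.16 (TMM, quasi-likelihood, genes not at 0 in every sample compared), and genes with an adjusted p below 0.05 were called. Standard errors were derived from the F statistic. DESeq2 1.42.0, other scalings, filters, models and left-out samples were alternatives. The fits were tested on simulated data. log2 CPM used a prior count of 2.

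Same-numbered samples of gdf6Y and del9 deviated together (r from 0.190 to 0.307 in 5 of 5 pairs, over 10780 genes with a mean of at least 50 reads). Of the 5 gdf6Y samples, 4 were closest to their own number. The mean r was 0.243, beside 0.227 in gdf6Y against EV and 0.174 in del9 against EV. The numbers were taken as pairs in gdf6Y against del9 only. The pairs were used only where a block or pairs are named. All other values of gdf6Y against del9 are from the fit without a block. No 2 samples of a group agreed within sampling noise (chi-square per degree of freedom 1.48 to 13.2 over 35 pairs). The ligand genes and all lists were chosen with earlier results of these data known. All ligand genes are named, and of other lists up to 6 called genes with the smallest adjusted p, plus the 3 most expressed other ligands. This was not followed for the response genes, of which only *Id1*, *Id2* and *Ccn2* are named. Other called response genes had a smaller adjusted p than *Ccn2*.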

Additional observations from a re-analysis of the deposited data

How the results depend on the processing

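The lower *Inhbb* and *Inhba* in gdf6Y against EV were called in all 9 alternatives that kept the samples or dropped only EV replicate 6 (log2 fold changes from -0.12 to -0.10 and from -0.10 to -0.09), but with 1 sample left out the number of called ligand genes ran from 0 to 2. It was 0 in gdf6Y against del9 throughout, and 0 to 1 in del9 against EV, where *Tgfb2* was called (1 ligand gene) with total counts, with the replicate block and with the block and a gene length correction (adjusted p = 0.0286, 0.0175 and 0.00823 by edgeR). *Gdf11* was called in gdf6Y against EV with the block and length correction only (-0.12, adjusted p = 0.0258 by edgeR). No direction of a called value reversed. The replicate numbers were not taken as pairs in the EV comparisons (4 of 5 pairs over an r of 0.1 in each, the lowest 0.0739 for gdf6Y and 0.0573 for del9, with 2 and 0 samples closest to their own number). There the block, which drops EV replicate 6, gave 2114 and 3008 called genes in place of 1338 and 2425.

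In gdf6Y against del9 the 261 called genes became 661 with the replicate block and 643 with the block and length correction, 163 with the newer edgeR dispersion setting, 81 with DESeq2, 45 with filterByExpr and 44 with at least 10 counts in every sample. The cause was not tested. With 1 sample left out, called genes ran from 794 to 1751 in gdf6Y against EV (lowest without gdf6Y replicate 5), from 160 to 441 in gdf6Y against del9 (without del9 replicate 2 and replicate 1) and from 1692 to 2715 in del9 against EV; called genes of the other lists ran from 15 to 18, 10 to 14 and 11 to 15. The depth limits *Inha*, at 17 to 40 reads, and leaves *Bmp4*, *Bmp2* and *Gdf6* without a usable difference.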

Other observations

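*Fst*, the activin-binding antagonist, was picked after its values were seen. Its normalized counts in replicates 1 to 5 were 413, 523, 454, 395 and 560 in EV, with 479 in EV replicate 6, 388, 592, 539, 472 and 613 in gdf6Y, and 525, 686, 661, 590 and 725 in del9. Replicate 5 was the highest sample of each group. In gdf6Y and del9, whose numbers were taken as pairs, gdf6Y was the lower sample in 5 of 5 pairs, with means of 521 ± 92.0 and 637 ± 79.9 (SD, n = 5 each). The cause was not tested.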
